A study of Arabidopsis thaliana with 9 samples.

Results

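Transcript levels in the shoots of a SHORT-ROOT mutant of Arabidopsis thaliana (shr) were compared with those of the wild type (WT). The comparison takes the 3 arrays titled for the short-root mutant and the 3 titled for the wild type, 6 of the 9 arrays of the study, over all 20777 loci of the deposited table. The mutant carries the allele shr-5, and both groups share the Col-0 background. The 3 remaining arrays, of the SCARECROW mutant scr-3, entered the estimate of the spread and are quoted where a change in shr was set against the other mutant. Seedlings of all 3 groups grew in vitro on MS medium at 22 °C with 16 h of light and 8 h of dark, and RNA came from the vegetative part at growth stage 1.04. Each group held 3 biological repeats, per the labels, and was hybridised to Affymetrix ATH1 arrays. How many plants made up a repeat, and whether same-numbered repeats were grown together, the labels used here do not say. The rule of the comparison names shr replicate 3 as an array that stands apart, so every locus was tested with that array and without it. Sizes of change are those with all arrays unless stated.

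SHORT-ROOT (SHR) and SCARECROW (SCR) are transcription factors of the GRAS family. In the root, SHR protein moves from the stele into the layer around it, where it acts with SCR to set the asymmetric divisions of the ground tissue and to specify the endodermis, and a mutant of SHR has a short root that stops growing early. In leaves both genes are expressed in and around the veins, and the title of the series puts the question of how they act on leaf growth and on S phase. The mutation was present in the whole plant, so the shoots measured here sat on mutant roots.

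Values are on the log2 scale, as deposited, so a difference of 1 is a 2-fold change. They ran from 2.90 to 14.03, and the number of arrays limits their precision. The correlation over loci, which do not count as independent, was r = 0.970 to 0.979 between shr replicate 3 and the other arrays and 0.983 to 0.997 among the other 8 arrays. On shr replicate 3, 465 loci lay at least 2-fold above the mean of the other shr arrays and 516 lay at least 2-fold below it. For shr replicate 1 these counts were 184 and 173, for shr replicate 2 they were 89 and 103, and on the WT and scr arrays they ran from 1 to 82. The tissue label was checked on marker genes. The 22 nuclear photosynthesis genes had a median level of 13.4 on the WT arrays, and 11 of 12 root marker genes were between 3.68 and 6.03 there. The exception was PYK10 (AT3G09260), a beta-glucosidase gene best known from roots, at 10.8. In whole shoots, fewer cells of a type and less RNA per cell cannot be told apart.

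The SHR transcript (AT4G37650) separated the groups. It was at 6.61, 6.57 and 6.81 on WT replicates 1, 2 and 3, and at 4.70, 4.73 and 4.89 on shr replicates 1, 2 and 3. All shr arrays lay below all WT arrays, and replicate 3 lay with the other shr arrays. SHR fell by 1.89 on the log2 scale (SE 0.10, limma adjusted p = 2.87e-05), a 3.72-fold difference, and by 1.95 without shr replicate 3 (limma adjusted p = 9.35e-06). The position of its probes relative to the mutation is not known here.

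A locus was called changed at a limma adjusted p under 0.05, with Benjamini-Hochberg adjustment over every locus of the table. With all arrays 1691 of 20777 loci changed (8.14%), 904 higher in shr (4.35%) and 787 lower (3.79%), and 5113 passed an unadjusted p of 0.05. The adjusted calls held 276 loci that differed at least 2-fold. Without shr replicate 3 there were 2643 changed loci (12.7%), 1543 higher (7.43%) and 1100 lower (5.29%). A change is said below to hold when it passed in the same direction in both fits. This was so for 1514 loci (7.29%), 823 higher (3.96%) and 691 lower (3.33%), which are 89.5% of the calls with all arrays and 57.3% of the calls without replicate 3. No locus was called in opposite directions. The fits share every array but shr replicate 3, so their overlap is no independent check. Of the changes that held, 235 were at least 2-fold in both fits, 168 of them rises and 67 falls. In all 1514 the 3 shr arrays lay outside the range of the 3 WT arrays, as they did for 6094 of all loci (29.3%). The scaling moved the balance of directions: with every array shifted to a common median, 34.9% of calls were higher in shr against 53.5% as deposited, and 35.7% against 54.4% of those that held.

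Of the 2643 loci called from replicates 1 and 2, replicate 3 lay on the same side of the WT mean for 2092 and on the other side for 551. It showed at least 50% of their change for 1621 loci and was beyond all WT arrays in the same direction for 1940, and its median share of their change was 0.744. These loci were chosen by replicates 1 and 2, which favours large changes on those arrays, so the share does not measure how far replicate 3 differs in general. The count of calls also rested on other single arrays. It was 859, 654 and 750 without WT replicate 1, 2 or 3 and 1029 without shr replicate 2, and for the changes that held it was 858, 654 and 747 without the WT arrays, 994 without shr replicate 1 and 644 without shr replicate 2. Of the 1514 changes, 549 passed in every fit that left out 1 array.

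**Figure D1:**
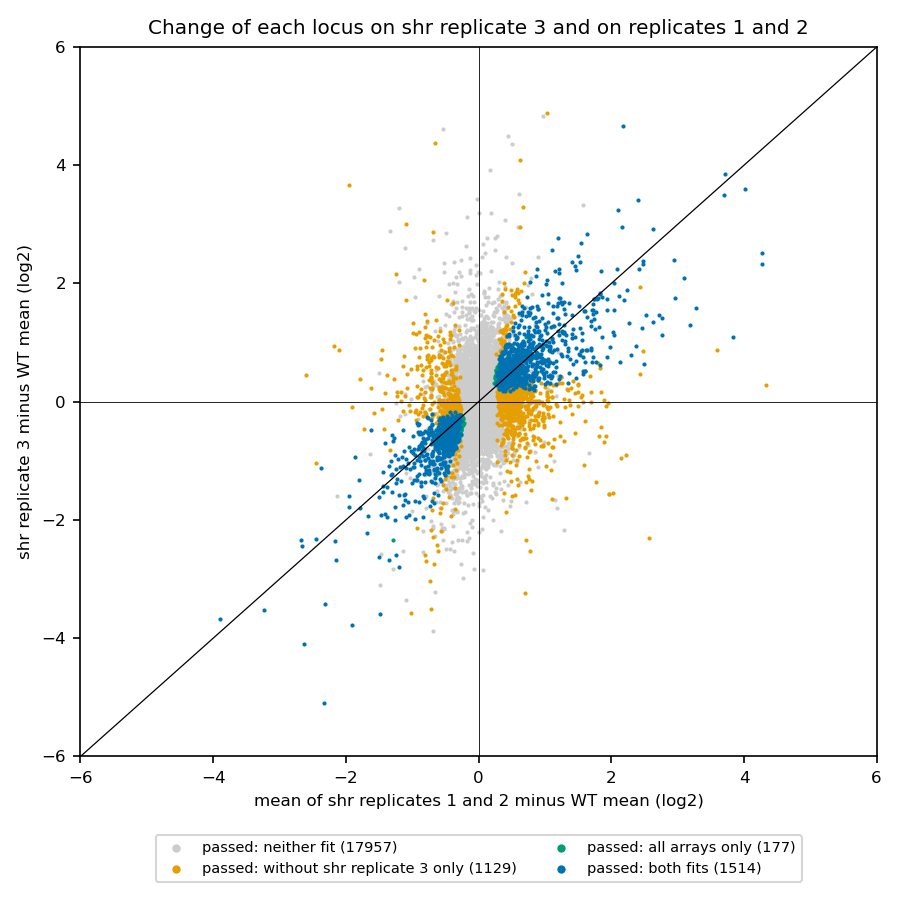
Each point is 1 locus, with the mean of shr replicates 1 and 2 minus the WT mean on the x axis and shr replicate 3 minus the WT mean on the y axis, both on the log2 scale; colours give the fit in which the locus passed, and the diagonal marks equal change. The 1514 loci that passed in both fits lie in the upper right and lower left, while those that passed only without replicate 3 (1129) include loci on the other side of 0.

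LTP4, LSU1, BGLU28 and SDI1 led the rises among genes with a symbol. LTP4 (AT5G59310), a lipid transfer protein gene that responds to abscisic acid, was at 4.84, 4.60 and 5.65 on the WT arrays and at 8.83, 9.25 and 8.62 on the shr arrays. LTP4 rose by 3.87 (SE 0.33, limma adjusted p = 0.000485), the largest rise among genes with a symbol. These rises and the falls below were picked among loci whose WT and shr arrays did not overlap. EARLI1, which encodes a lipid transfer-like protein, rose by 2.74, with values of 5.16, 7.56 and 7.37 on the shr arrays against 3.75 to 4.09 on the WT arrays. SWEET13, a sucrose transporter gene, rose by 2.32. ASN1, an asparagine synthetase gene that is induced in darkness and low sugar, rose 8.03-fold with all arrays. Its value was highest on replicate 3, so this fold is smaller without that array. ZIP5, of a family of zinc and iron transporters, rose by 2.03, and by 1.63 without replicate 3. It was among the dimmest 40% of loci. JAL23, a jacalin-like lectin gene (2.71), DR4, of the Kunitz protease inhibitor family (2.45), and DJ1A, a homologue of the DJ-1 gene (2.48), rose too. Without replicate 3 JAL23 rose by 3.28. Enzyme genes among the 18 largest rises were BGLU11, a beta-glucosidase (2.76), GSTU24, a glutathione transferase (2.30), BCA3, a carbonic anhydrase (2.21), and PGDH, a phosphoglycerate dehydrogenase of serine synthesis (2.17). The calls of EARLI1, GSTU24 and ASN1 were lost without single arrays: EARLI1 without any one WT array or shr replicate 2 (limma adjusted p up to 0.0755), GSTU24 without WT replicate 2, WT replicate 3 or shr replicate 2 (up to 0.0593), and ASN1 without any one WT array (up to 0.0786).

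Among the falls of genes with a symbol that held, PGL5 (AT5G24420), a 6-phosphogluconolactonase gene of the oxidative pentose phosphate pathway, led with 8.23, 8.28 and 8.20 on the WT arrays against 6.27, 5.58 and 4.82 on the shr arrays. It fell by 2.68 (SE 0.32, limma adjusted p = 0.0022). PRA1.F1, which encodes a prenylated RAB acceptor of membrane traffic, fell by 2.59, and PAP8, a purple acid phosphatase gene, fell by 2.53. On the array of replicate 3 PAP8 was at 4.40, below its 6.31 and 6.21 on the other shr arrays and its 8.07 to 8.32 on the WT arrays. Without that array PAP8 fell by 1.91. THA2 (AT3G04520), a threonine aldolase gene, was at 8.33, 8.21 and 8.16 on the WT arrays and at 6.12, 6.02 and 5.89 on the shr arrays, a fall by 2.23 (SE 0.08, limma adjusted p = 1.69e-05). The next falls were those of SHR itself, CYP707A2, an abscisic acid 8′-hydroxylase gene (-1.87), PRE1, a small helix-loop-helix protein of cell elongation (-1.83), and ORE1, a NAC factor of leaf senescence (-1.80). CYP707A2 had -1.50 without replicate 3. SWEET2, a vacuolar sugar transporter gene, fell by 1.57, FBA5, a fructose-bisphosphate aldolase gene, by 1.51, and RVE1, a MYB-like factor that links the clock to auxin, by 1.48. MSRB6, which encodes a methionine sulfoxide reductase, fell by 1.44, the zinc finger factor gene GATA12 by 1.40, and NAS3, a nicotianamine synthase gene, by 1.36. DIR1, a lipid transfer protein gene of systemic acquired resistance, fell by 1.38, as LTP4 and EARLI1 rose. SCPL13, a carboxypeptidase-like gene, fell by 1.56, and GPX7, a chloroplast glutathione peroxidase gene, by 1.38. The call of SCPL13 was lost without WT replicate 2 (limma adjusted p = 0.0536) and that of GPX7 without any one WT array or shr replicate 2 (up to 0.0925). PRA1.F1 and NAS3 were among the dimmest 40% of loci.

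**Figure D2:**
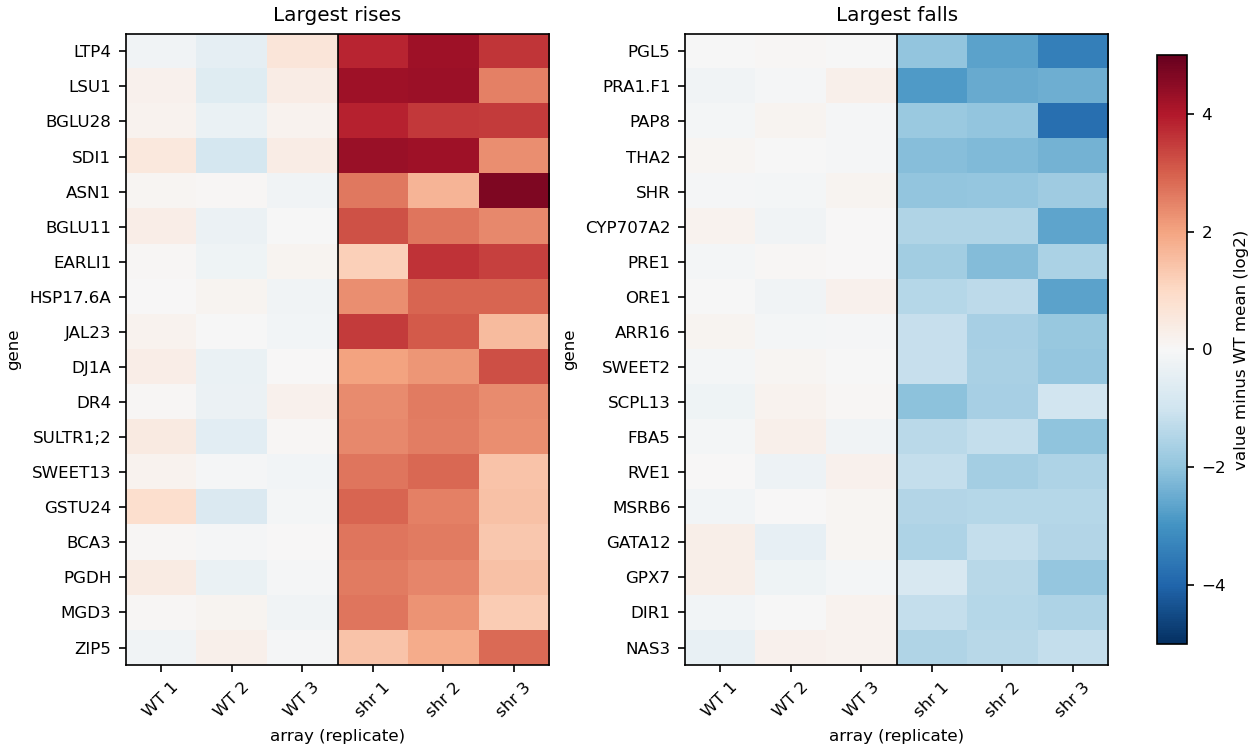
Colours give each array's value minus the WT mean on the log2 scale for the 18 largest rises (left) and the 18 largest falls (right) among genes with a symbol whose change held; columns are arrays. Genes were chosen so that on every shr array each lies on 1 side of all WT arrays. Replicate 3 is weaker than the other shr arrays for LSU1, SDI1 and JAL23 and stronger for ASN1, PGL5 and PAP8.

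Of 10 genes of the SHR-SCR pathway, 1 rose and 3 fell with all arrays, with a median change of -0.46 against -0.01 over all loci, of which 4.35% rose and 3.79% fell. SCR (AT3G54220) was at 7.96, 8.00 and 7.94 on the WT arrays and at 7.60, 7.43 and 7.35 on the shr arrays. The groups did not overlap, and SCR fell by 0.51 (SE 0.12, limma adjusted p = 0.0399), but without replicate 3 the difference was -0.45 (limma adjusted p = 0.0547). SNE, an F-box protein gene known as a target of SHR in the root, fell by 0.42 and MGP (MAGPIE), a zinc finger partner of SHR and SCR, rose by 0.34, and both changes held. JACKDAW (JKD), a zinc finger factor that restricts SHR movement, was at 5.71, 5.64 and 5.72 in WT and at 4.63, 5.09 and 5.46 in shr. All shr arrays were lower and replicate 3 was nearest to WT, so that JKD passed without that array (-0.83, limma adjusted p = 0.0048) and not with it (-0.63, limma adjusted p = 0.0673). SCL23, the GRAS gene closest to SCR, likewise had -0.70 without (limma adjusted p = 0.0089) and -0.55 with replicate 3 (limma adjusted p = 0.0621). CYCD6;1, a D-type cyclin gene switched on by SHR with SCR in root ground tissue, had a difference of -0.34 (limma adjusted p = 0.0834, and 0.0841 without replicate 3). SCR also missed the threshold on leaving out any one WT array, scr replicate 2 or shr replicate 2 (limma adjusted p up to 0.126), MGP on leaving out any one WT array or shr replicate 2 (up to 0.0955), and SNE in 7 of the 9 such fits, those other than WT replicate 2 and shr replicate 3 (up to 0.116). The count of 4 was 1 without WT replicate 1, WT replicate 3 or shr replicate 2 and 2 without WT replicate 2 or scr replicate 2. With a common median 8 of the 10 genes were lower and MGP no longer passed in both fits.

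Most measured genes of the response to low sulfur rose. This response takes up and frees sulfate, shifts sulfur away from glucosinolates and salvages it from glutathione. All gene lists were chosen with earlier results of these data known, so their shares beside those of all loci are descriptive and not tests. Of 15 measured genes, 11 rose in both fits and none fell (12 rose without replicate 3), with a median change of 1.28, and of 1.42 without that array, against -0.01 and -0.02 over all loci, of which 3.96% rose in both fits and 7.43% without replicate 3. LSU1 (RESPONSE TO LOW SULFUR 1, AT3G49580) was at 5.91, 5.08 and 6.05 on the WT arrays and at 9.93, 9.96 and 8.19 on the shr arrays. Replicate 3 was lower than the other shr arrays and still above all WT arrays, and LSU1 rose by 3.68 (SE 0.45, limma adjusted p = 0.0024), or 12.8-fold. SDI1 (SULFUR DEFICIENCY-INDUCED 1), a repressor of glucosinolate synthesis, had the same order, with 10.58, 10.50 and 8.60 on the shr arrays against 5.39 to 6.78 on the WT arrays, and rose by 3.62. BGLU28 (AT2G44460), a beta-glucosidase gene linked to glucosinolate breakdown, was at 5.32, 4.79 and 5.29 in WT and at 8.99, 8.67 and 8.63 in shr, so all 3 shr arrays were alike. It rose by 3.63 (SE 0.18, limma adjusted p = 2.87e-05), or 12.4-fold. SULTR1;2, a high-affinity sulfate transporter gene, rose by 2.43, from 4.58 to 5.54 on the WT arrays to between 7.43 and 7.64 on the shr arrays. GGCT2;1, whose enzyme breaks down glutathione, rose by 2.76. The other 6 members that rose did so by 0.90 to 1.36. APR1, an adenylyl-sulfate reductase gene of sulfate assimilation, was at 10.36 and 10.55 on shr replicates 1 and 2 and at 9.60 on replicate 3, within the WT range of 9.50 to 9.73. The count was between 10 and 12 without any single array.

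The genes that make aliphatic glucosinolates, sulfur-rich defence compounds derived from methionine, divided the shr arrays. Of 15 genes only MYB76, one of 3 MYB regulators of the pathway on the list, fell in both fits (-0.91, limma adjusted p = 0.0063), and 6 fell without replicate 3, where 5.29% of all loci fell. The list's median was -1.60 on shr replicate 3 and -0.34 and -0.29 on the other shr arrays, and without shr replicate 1 there were 3 falls. MYB29, a second regulator, was at 9.15, 9.31 and 8.90 on the WT arrays and at 8.27, 8.50 and 6.08 on the shr arrays. All shr arrays were below WT and replicate 3 was far below the others, so MYB29 passed without that array (-0.73, limma adjusted p = 0.0052) and not with it (-1.50, limma adjusted p = 0.118). CYP83A1, of core glucosinolate synthesis, had the same order, at 10.62, 10.53 and 9.13 in shr against 11.17 to 11.41 in WT. BCAT4, of methionine chain elongation, was at 10.81, 10.62 and 8.92 in shr against 11.24 to 11.42 in WT.

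Phosphate starvation genes were higher in shr, chiefly on replicates 1 and 2. Plants short of phosphate replace phospholipids with galactolipids and sulfolipids and release phosphate with phosphatases and nucleases. Of 17 genes 7 rose in both fits (41.2%, against 3.96% of all loci) and 14 rose without replicate 3 (against 7.43% of all loci), and none fell. The list's median was 0.20 on shr replicate 3 and 1.20 and 1.05 on the other shr arrays. MGD3 (AT2G11810), a galactolipid synthase gene, was at 4.64, 4.70 and 4.39 on the WT arrays and at 7.27, 6.81 and 5.83 on the shr arrays. Replicate 3 lay between WT and the other shr arrays, and MGD3 rose by 2.06 (SE 0.30, limma adjusted p = 0.0056). A filter on the dimmest 40% of loci removed MGD3 and left 11 of the genes, of which 5 rose with all arrays. PS2, a phosphatase gene induced by phosphate starvation, was at 8.35, 8.15 and 5.51 in shr against 3.99 to 4.67 in WT and rose by 2.91. Without replicate 3 PS2 rose by 3.83. MGD2, also of galactolipid synthesis, rose by 1.33, and GDPD1, a glycerophosphodiester phosphodiesterase gene, by 1.24. SPX1, a sensor protein gene that reports phosphate status, was at 10.03, 10.26 and 8.61 in shr and 8.32 to 8.60 in WT. PAP17, an acid phosphatase gene, was at 9.98 and 10.19 on shr replicates 1 and 2 and at 8.11 on replicate 3, below the WT arrays at 8.41 to 8.80. Both passed only without replicate 3 (SPX1 1.70, limma adjusted p = 0.000138; PAP17 1.45, limma adjusted p = 0.000651). With all arrays the count fell to 3 without WT replicate 1, 2 or 3 or shr replicate 1 or 2 and to 4 without scr replicate 2. The calls of PS2 and GDPD1 were each lost in 7 of the 9 fits without 1 array, which kept them without scr replicate 1 and shr replicate 3 (limma adjusted p up to 0.113 and 0.147).

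Genes of small heat shock proteins and chaperones, which keep other proteins folded, were read next. Of 17 heat shock genes 7 rose in both fits (41.2%, against 3.96% of all loci), 7 passed in neither fit and none fell, and the median was 0.43, 0.48 and 0.69 on shr replicates 1, 2 and 3. HSP17.6A (AT5G12030), a cytosolic small heat shock protein gene, was at 3.70, 3.80 and 3.51 on the WT arrays and at 6.01, 6.58 and 6.59 on the shr arrays, so replicate 3 lay with the higher of the others. It rose by 2.72 (SE 0.15, limma adjusted p = 5.43e-05), from a WT level near the lowest of the table that is not shown to be above background. The list was dim, with a median WT level of 4.66 against 6.52 over all loci, and a filter on the dimmest 40% of loci left 4 of its genes, of which HSP90.1 and HSP70 rose. HSP90.1 rose by 1.66, HSP70 by 1.63 and AT2G29500, another small heat shock protein gene, by 1.58. The call of HSP70 was lost without WT replicate 2 or 3 (limma adjusted p up to 0.0601). Of the 23 genes of abscisic acid and water deficit 4 rose and 1 fell in both fits, and 11 rose without replicate 3, against 3.96%, 3.33% and 7.43% of all loci. Besides LTP4 and the fall of CYP707A2, LTI30, a dehydrin gene of cold and drought, rose by 1.80, and COR15A, which encodes a chloroplast protein of cold acclimation, by 0.93. LTP3, a close relative of LTP4 whose probes could read the same transcripts, was at 7.13, 9.56 and 7.85 in shr against 5.05 to 6.63 in WT (limma adjusted p = 0.0566, and 0.0415 without replicate 3). The list's median was 0.57, 0.80 and -0.21 on shr replicates 1, 2 and 3. The call of COR15A was lost without any one array other than shr replicate 3 (limma adjusted p up to 0.142).

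Several cytokinin response genes fell in shr. Type-A response regulators are induced by cytokinin and damp its signalling. Of 15 genes of the list 7 fell in both fits (46.7%, against 3.33% of all loci) and none rose, all of the 7 being type-A regulators, and the median change was -0.52, and -0.39 without replicate 3. ARR16 (AT2G40670) was at 7.25, 6.99 and 7.05 on the WT arrays and at 5.95, 5.43 and 5.19 on the shr arrays. It fell by 1.57 (SE 0.18, limma adjusted p = 0.0017), or 2.97-fold. ARR5 fell by 1.23 and ARR15 by 1.06, and ARR9 fell by 1.02, with 8.06, 7.76 and 6.94 on the shr arrays against 8.49 to 8.68 on the WT arrays. The other 3 members that fell did so by 0.51 to 0.86. The count was 5 on leaving out replicate 2 or 3 of WT or of scr, or shr replicate 2, and 6 to 8 otherwise. The call of ARR9 was lost without any one array other than shr replicate 1 or 3 (limma adjusted p up to 0.111). The filter on dim loci left 9 of the 15 genes, and the 6 that then fell did not include ARR5.

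Genes of auxin response, elongation growth and cell wall loosening passed in small numbers with all arrays, and several had the opposite sign on replicate 3. Of 18 auxin response genes 1 fell in both fits, and 7 fell and 1 rose without replicate 3. Without that array 5.29% of all loci fell and 7.43% rose. The list's median was 0.24 on shr replicate 3 and -0.35 and -0.24 on the other shr arrays. IAA1, an auxin-induced repressor gene, fell by 0.63. IAA29, of the same family and linked to shade, was at 6.18, 5.83 and 6.06 on the WT arrays and at 4.44, 4.44 and 5.83 on the shr arrays, so replicate 3 lay at the lowest WT array (-1.58 without it, limma adjusted p = 3.49e-05). HAT2, a homeobox gene induced by auxin, was at 7.56 and 7.73 on shr replicates 1 and 2, below WT (8.27 to 8.52), and at 8.89 on replicate 3, above WT. GH3.3, whose enzyme conjugates auxin, was at 6.52, 6.30 and 8.83 in shr against 6.25 to 6.41 in WT. Of 14 helix-loop-helix and gibberellin genes of growth 3 fell in both fits (21.4%, against 3.33% of all loci): PRE1, with 7.12, 7.28 and 7.24 in WT and 5.47, 5.05 and 5.63 in shr, BEE3 (-0.83) and BEE2 (-0.74), the last 2 being brassinosteroid-induced factors of growth. HBI1, a bHLH factor that promotes cell elongation, was at 8.68, 8.85 and 10.10 in shr against 9.88 to 9.97 in WT. Of 19 cell wall genes the expansin genes EXPA8 (-1.13) and EXPA11 (-0.74) fell in both fits (10.5%). Without replicate 3, 6 fell and 2 rose, against 5.29% and 7.43% of all loci. XTH24, a xyloglucan endotransglucosylase gene, was at 7.74, 7.96 and 11.31 in shr against 7.73 to 7.97 in WT, so it differed on replicate 3 alone. The calls of IAA1 (limma adjusted p up to 0.103), BEE2 (up to 0.0720) and EXPA11 (up to 0.0985) were each lost without any one WT array. IAA1 also missed the threshold without scr replicate 3 or shr replicate 1, BEE2 without shr replicate 2 and EXPA11 without shr replicate 1.

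The lists of mitosis and of the histones made in S phase had medians below WT on all 3 shr arrays. Of 20 mitosis genes 10 fell in both fits (against 3.33% of all loci) and none rose, with a median change of -0.48 (-0.39 without replicate 3). KNOLLE (KN), the syntaxin gene of cell plate formation, was at 9.68, 9.67 and 9.57 on the WT arrays and at 9.01, 9.04 and 8.99 on the shr arrays. The shr arrays were alike, and KN fell by 0.62 (SE 0.08, limma adjusted p = 0.0036), or 1.54-fold. CYCB1;1, a B-type cyclin gene, was at 6.18, 6.22 and 5.87 in shr against 6.80 to 6.82 in WT and fell by 0.72. AUR2, an Aurora kinase gene, fell by 0.70, and TPX2, of spindle assembly, by 0.59. Of 14 genes of replication-dependent histones 9 fell with all arrays and 8 of them in both fits (57.1%), with a median of -0.40. The histone H4 gene HIS4 was at 8.89, 9.01 and 8.89 in WT and at 8.30, 8.57 and 8.04 in shr (-0.63), and 3 histone H3 genes fell as well, AT3G27360 (-0.68), AT5G10400 (-0.56) and AT1G09200 (-0.46). Histone genes of a class are near-identical copies whose probes could read each other's transcripts. AT5G65360, also of histone H3, fell with all arrays (-0.32) and had a limma adjusted p of 0.0574 without replicate 3. The mitosis count was 5 without WT replicate 1 or 2, and 7 to 11 without any other array. The histone count was 2 without WT replicate 1, 0 without WT replicate 2 or 3, 5 without shr replicate 1 and 6 to 8 otherwise, so the calls of HIS4, AT1G09200 and AT3G27360 were lost without any WT array (limma adjusted p up to 0.0813, 0.0764 and 0.147), that of AT5G10400 without WT replicate 2 or 3 (up to 0.0566), and that of AUR2 without any WT array (up to 0.0816). The call of AT3G27360 was also lost without each scr array and shr replicate 1, and that of AT5G65360 in 7 of the 9 fits (up to 0.122).

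The genes of DNA replication itself mostly did not pass. Of 22 genes 3 fell with all arrays and 1 in both fits (4.55%, against 3.33% of all loci), with a median change of -0.27. At an unadjusted limma p under 0.05, 12 were lower and none higher, against 2544 lower and 2569 higher among all 20777 loci. CDC6A, which loads the replicative helicase, was at 5.46, 5.71 and 5.72 in WT and at 4.85, 5.0 and 5.25 in shr and fell by 0.60 (SE 0.11, limma adjusted p = 0.0159). PCNA2, the sliding clamp of DNA polymerase, had -0.47 and MCM7, a subunit of the helicase, -0.41. Both passed only with all arrays (limma adjusted p = 0.0695 and 0.0714 without replicate 3) and lost the call in 8 of the 9 fits without 1 array. The filter on dim loci removed CDC6A and left 18 of the genes, of which MCM7, PCNA1 and PCNA2 fell with all arrays. With a common median 9 of the 22 fell, and 7 in both fits. Without single arrays the count ran from 0, without WT replicate 2 or 3, to 4, without shr replicate 2, and was 1 without all others but scr replicate 1, and CDC6A missed the threshold without WT replicate 2, WT replicate 3 or shr replicate 2 (limma adjusted p up to 0.0705). Of 18 cyclins and inhibitors of the G1 to S transition 2 fell in both fits, the D-type cyclin gene CYCD3;2 (-0.54) and KRP3, an inhibitor of cyclin-dependent kinases (-0.44). Neither passed without any one WT array (limma adjusted p up to 0.124 and 0.134). CYCD3;2 was lost also without scr replicate 2 or 3 or shr replicate 2, and KRP3 also without scr replicate 2 or shr replicate 1 or 2.

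Of 22 regulators of leaf growth 1 rose (4.55%) and 2 fell (9.09%), in both fits, against 3.96% and 3.33% of all loci, and the median of the list was -0.06. AN3 (AT5G28640), a transcriptional coactivator that promotes cell proliferation in leaves, was at 6.54, 6.82 and 6.73 on the WT arrays and at 5.48, 5.41 and 5.33 on the shr arrays. The shr arrays were alike and apart from WT, and AN3 fell by 1.29 (SE 0.13, limma adjusted p = 0.000975), or 2.44-fold. ARGOS, an auxin-induced gene that prolongs organ growth, fell by 1.08, with 4.35, 4.33 and 4.57 in shr against 5.38 to 5.71 in WT. ROT3, a cytochrome P450 gene of brassinosteroid synthesis and leaf length, rose by 0.87. No other member passed in either fit, and with the filter on dim loci, which left 15 members, AN3 alone passed. ROT3 missed the threshold on leaving out any one WT array or shr replicate 2 (limma adjusted p up to 0.0787).

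Markers of the meristem, of flowering time and of the vasculature were also read. Of 20 meristem and floral genes 4 rose and 1 fell in both fits, against 3.96% and 3.33% of all loci. This list was also dim, and the filter on dim loci left 4 of its genes. KNAT1, a homeobox gene of the meristem and stem, was at 5.30, 5.23 and 5.10 on the WT arrays and at 6.20, 6.57 and 6.62 on the shr arrays, and rose by 1.26 (SE 0.16, limma adjusted p = 0.0025). STM, of the same family and needed for the shoot meristem, rose by 0.79 with all shr arrays (6.66 to 7.03) above all WT arrays (5.73 to 6.21). FLC, a repressor of flowering, was at 5.19, 5.11 and 4.93 in WT and at 6.21, 5.77 and 6.28 in shr and rose by 1.01, and SOC1, a promoter of flowering that FLC represses, fell by 0.81. CLV1, a receptor kinase gene of the meristem, passed only with all arrays (0.36, limma adjusted p = 0.0566 without replicate 3). Of 13 vascular markers 3 rose in both fits (23.1%): SWEET11 (0.63) and SUC2 (0.49), both of phloem loading, and CESA7, of the secondary cell wall (0.42). SWEET12, the partner of SWEET11, was at 8.27, 8.48 and 9.44 in shr against 7.68 to 7.84 in WT and passed without replicate 3 only (0.60, limma adjusted p = 0.0250). PP2-A1, a phloem protein gene (0.44), and XCP1, a xylem peptidase gene (-0.34), passed with all arrays only. With a common median 1 vascular gene was higher and 2 were lower. The vascular count was 0 or 1 without any one WT array or without scr replicate 2 or 3, and it was 2 without shr replicate 2 or scr replicate 1. Among the genes named here, the call of SOC1 was lost without WT replicate 1 or 3 (limma adjusted p up to 0.0598), that of SWEET11 without any WT array (up to 0.0897), those of CLV1 and CESA7 in 7 fits (up to 0.144 and 0.151), that of SUC2 in 5 (up to 0.121), and those of PP2-A1 and XCP1 in 8 of 9 fits (up to 0.152 and 0.124).

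**Figure D3:**
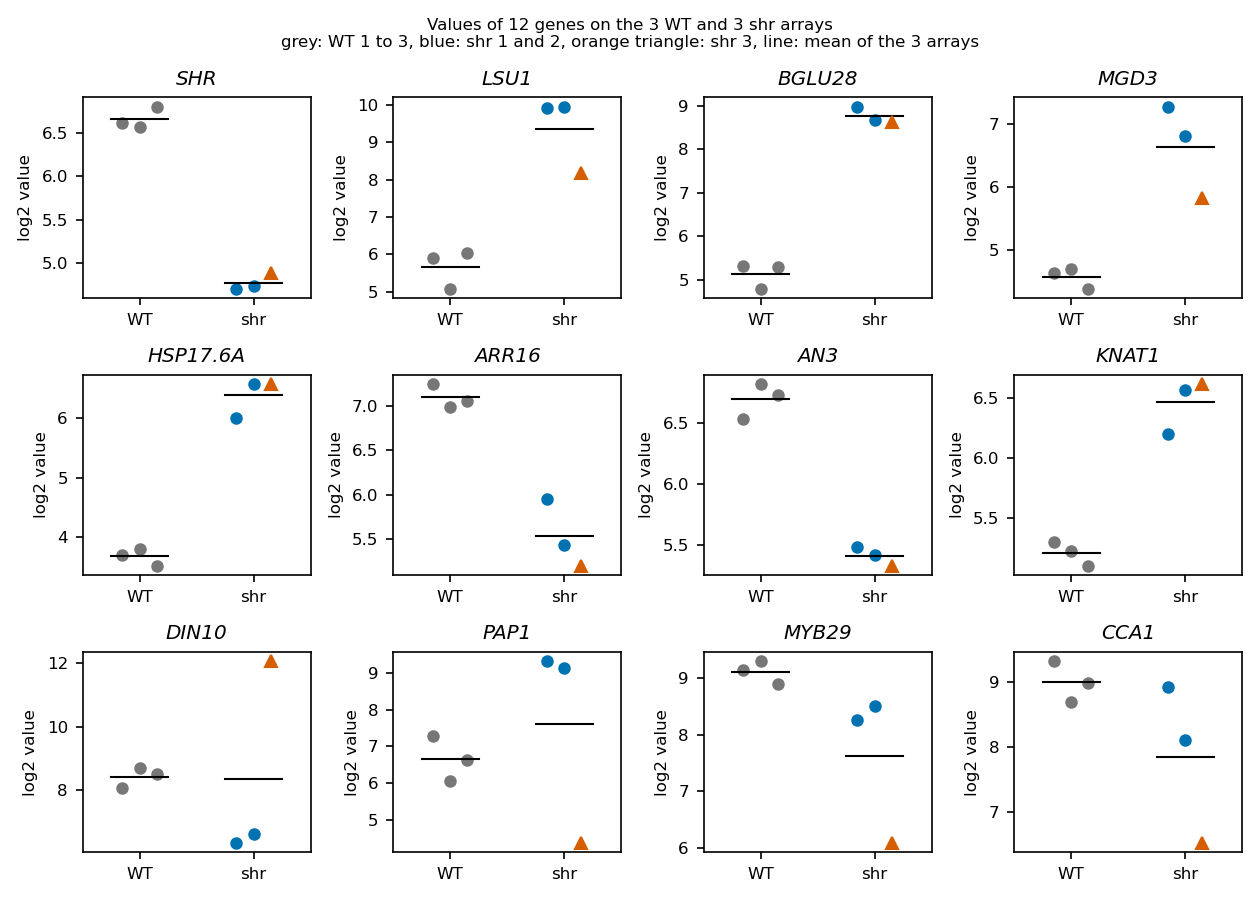
Log2 values of 12 genes on the single arrays: WT in grey, shr replicates 1 and 2 in blue, shr replicate 3 as an orange triangle, and the mean of the 3 arrays as a line; each panel has its own vertical axis, which does not start at 0. In the upper 2 rows all shr arrays lie on 1 side of WT, while in the bottom row replicate 3 is at 12.08 for DIN10, 4.36 for PAP1, 6.08 for MYB29 and 6.51 for CCA1, away from the other shr arrays.

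Some sugar starvation genes set shr replicate 3 far apart. Over the 17 genes of the list the median was 0.60 on that array and -0.05 and 0.07 on shr replicates 1 and 2. DIN10, a raffinose synthase-like gene induced by darkness and low sugar, was at 8.05, 8.69 and 8.50 on the WT arrays, at 6.32 and 6.61 on shr replicates 1 and 2 and at 12.08 on replicate 3. It was thus below WT on 2 shr arrays (-1.95 without replicate 3, limma adjusted p = 0.0071) and above WT on the third. SEN1, a dark-induced gene, was at 5.20, 6.52 and 9.57 in shr against 6.76 to 7.35 in WT, and DRM2, a dormancy-associated gene, at 4.55, 5.78 and 10.32 against 5.14 to 6.09. PRODH1, the proline dehydrogenase gene, was at 7.46, 6.50 and 10.84 in shr against 5.78 to 6.30 in WT, higher on all shr arrays and highest on replicate 3. Of the 17 genes of the list 3 rose in both fits (against 3.96% of all loci): ASN1, with 5.47, 5.43 and 5.19 in WT and 8.01, 7.07 and 10.02 in shr, BZIP11, a factor repressed by sucrose (0.62), and IVD, of branched-chain amino acid breakdown (0.43). Without replicate 3, 5 rose and 5 fell, against 7.43% and 5.29% of all loci. Each of those 3 calls was lost without any one WT array (limma adjusted p up to 0.0786 for ASN1, 0.0764 for BZIP11 and 0.0883 for IVD).

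Flavonoid and anthocyanin genes set replicate 3 apart in the other direction. Of 19 genes 12 rose and 1 fell without replicate 3, where 7.43% and 5.29% of all loci did, and with all arrays none rose and 1 fell. The list's median was -0.86 on shr replicate 3 and 1.74 and 1.02 on the other shr arrays. PAP1, the MYB factor that switches on anthocyanin synthesis, was at 7.27, 6.07 and 6.64 on the WT arrays, at 9.33 and 9.13 on shr replicates 1 and 2 and at 4.36 on replicate 3, so replicates 1 and 2 were above and replicate 3 below all WT arrays. DFR, of anthocyanin synthesis, was at 11.59, 10.56 and 7.95 in shr against 8.08 to 9.48 in WT. TT8, a bHLH partner of PAP1, was at 7.0 and 6.29 on shr replicates 1 and 2 and at 4.64 on replicate 3, within the WT range of 4.45 to 4.94. TT4, the chalcone synthase gene of the first step, was at 12.69, 12.19 and 11.25 in shr and 10.63 to 11.21 in WT, higher on all shr arrays, and passed without replicate 3 (1.49, limma adjusted p = 0.0105). MYBL2, a repressor of anthocyanin synthesis, was at 9.91, 9.96 and 10.16 in WT and at 9.17, 9.01 and 9.21 in shr. It was the only member of the list whose change held, a fall by 0.88 (SE 0.16, limma adjusted p = 0.0128), and lost the call without WT replicate 3 (limma adjusted p = 0.0555).

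Of 16 clock genes only RVE1 changed, in both fits (6.41, 6.13 and 6.57 in WT, and 5.18, 4.66 and 4.83 in shr). The list's median was -0.15, -0.03 and -0.01 on shr replicates 1, 2 and 3. The shr arrays were spread widely on 3 members, chosen after their values were seen. CCA1, a morning-phased clock gene, was at 9.33, 8.69 and 8.99 on the WT arrays and at 8.92, 8.11 and 6.51 on the shr arrays. LHY, its close relative, was at 9.43, 7.55 and 6.87 in shr against 8.58 to 9.51 in WT, and GRP7, an evening-phased gene, at 9.50, 11.87 and 12.84 against 10.12 to 11.08. Replicate 3 was the lowest shr array for both morning genes and the highest for GRP7, and replicate 2 lay between the other shr arrays for all 3. The other shr arrays left the WT range too, both of them for GRP7 and replicate 2 for CCA1 and LHY. The part of harvest time and of sugar supply in the values of replicate 3 was not tested, and the labels used here give no time of harvest.

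**Figure D4:**
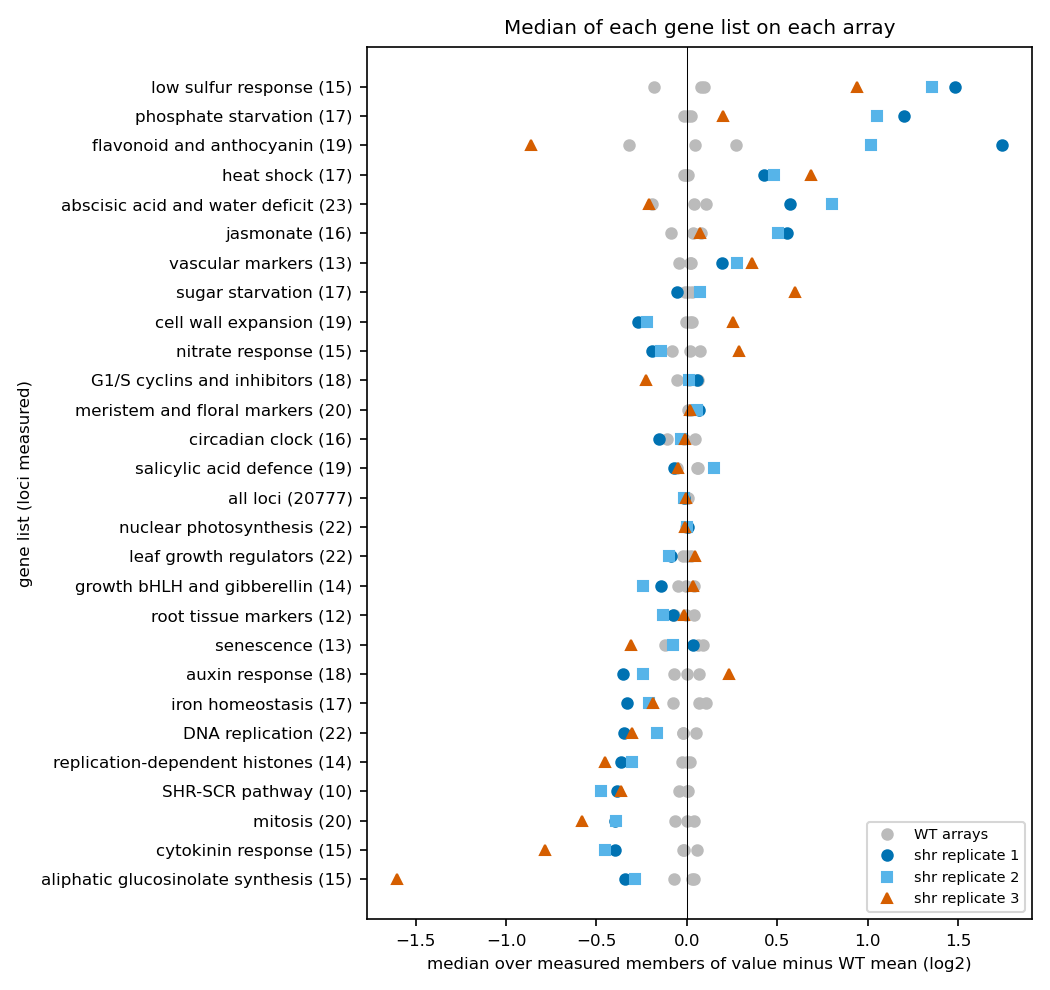
For each gene list, with the number of measured loci in brackets, the points give the median over its members of the value minus the WT mean on the log2 scale, on each WT array (grey) and on shr replicates 1, 2 and 3. Replicate 3 lies near the other shr arrays for the mitosis, histone and heat shock lists and on the other side of 0 for the flavonoid list (-0.86 against 1.74 and 1.02).

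Of 16 jasmonate genes 4 rose in both fits (against 3.96% of all loci) and 6 without replicate 3 (against 7.43%). LOX2, a lipoxygenase gene of jasmonate synthesis, was at 11.55, 11.34 and 11.49 in WT and at 12.98, 12.96 and 12.26 in shr and rose by 1.28 (SE 0.18, limma adjusted p = 0.0045). CORI3, a cystine lyase gene induced by jasmonate, rose by 1.63, OPR3, of jasmonate synthesis, by 0.60 and LOX4 by 0.58. AOS, of the same pathway, was at 10.50, 10.56 and 9.72 in shr against 9.64 to 9.83 in WT, so replicate 3 was within the WT range. The count was 2 without any one array other than shr replicate 3, since LOX4 and OPR3 lost their calls there (limma adjusted p up to 0.127 and 0.142). Of 19 genes of salicylic acid defence EDS5, a transporter gene needed for salicylic acid to build up, rose in both fits (0.77). PR2, a glucanase gene of defence, was at 6.99, 7.19 and 5.67 in shr against 5.52 to 5.85 in WT.

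Among the remaining lists few genes passed. Over all loci 7.29% changed in both fits, which is near the share of the auxin, clock, root, salicylic acid, aliphatic glucosinolate, flavonoid and DNA replication lists, with 1 member each (4.55% to 8.33%). In the iron list 11.8% fell in both fits, and in the nitrate list 13.3% rose and 6.67% fell. In the senescence list 7.69% rose and 7.69% fell, against 3.96% and 3.33% of all loci. Of 17 iron genes NAS3 and the ferritin gene FER3 (-0.95) fell in both fits, and the ferritin gene FER1 with all arrays (-1.64), with 9.97, 8.99 and 8.44 in shr against 10.39 to 11.16 in WT. Of 15 nitrate response genes RFNR1 (0.72) and RFNR2 (0.83), ferredoxin-NADP reductase genes of the root type, rose and NIR1, the nitrite reductase gene, fell by 0.41. Of 13 senescence genes ORE1 fell and PPH, of chlorophyll breakdown, rose by 0.44, and 4 genes passed without shr replicate 1. Of the root markers PYK10 rose by 0.84, and 11 of 12 did not pass in either fit. None of the 22 photosynthesis genes passed in limma's test, or at an unadjusted p under 0.05, and their changes lay between -0.30 and 0.07. With a median level of 13.4, near the table's highest value of 14.03, they lay where an array may no longer follow differences, which was not tested. The calls lost here without single arrays were those of FER3 (WT replicate 2 or 3, shr replicate 1 or 2, limma adjusted p up to 0.101), RFNR2 (WT replicate 2 or 3, up to 0.0624), PPH (WT replicate 2, 0.0574) and FER1 (7 of 9 fits, up to 0.151).

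The 177 loci called with all arrays and not without replicate 3 (81 higher, 96 lower) lay near the threshold. Their limma adjusted p without that array was at most 0.0859, and the median size of their change was 0.36 against 0.59 for the changes that held. The 6 with a symbol and the largest change were FER1, PBL1 (0.84) and MRLK (-0.57), both kinase genes, LBO1 (0.70), of strigolactone synthesis, RABA4C (0.58), a small GTPase gene, and VIIIA (0.56), a myosin gene. The other 5 lost the call also without 5 or 6 further arrays (limma adjusted p up to 0.141). Of the 1129 loci called only without replicate 3, the 6 with a symbol on which that array lay farthest back were DIN10, XTH31, BXL2, EXLA1, AT5MAT and PYD4. XTH31, a cell wall enzyme gene, was at 12.10, 11.65 and 7.95 in shr against 11.02 to 11.32 in WT. BXL2, a beta-xylosidase-like gene, was at 6.53, 6.25 and 9.93 against 7.03 to 7.10, and EXLA1, an expansin-like gene, at 3.72, 4.30 and 9.05 against 4.43 to 4.86. AT5MAT, of anthocyanin malonylation, was at 8.77, 8.04 and 4.84 against 5.91 to 6.63. On these 4 genes, as on DIN10, replicate 3 lay beyond the WT arrays on the side away from the other shr arrays. PYD4, an aminotransferase-like gene, was at 10.06, 9.74 and 5.85 against 4.89 to 6.0, within the WT range on replicate 3.

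To set shr against the other root patterning mutant, shr was compared with scr in the same fit. There 279 loci differed (1.34%), and 610 (2.94%) without shr replicate 3. Only some of the named genes are given here, picked by no stated rule, so they do not show how far the mutants differ in general. The comparisons share the shr arrays. THA2, which fell in shr, had a value of 0.64 in scr against WT, and the mutants differed by -2.87 (limma adjusted p = 1.79e-06). HSP17.6A had 0.26 in scr and a difference of 2.46 between the mutants (limma adjusted p = 0.000374), and FLC had -0.62 in scr and a difference of 1.63 (limma adjusted p = 0.0016). ARR16 had -0.19 in scr and a difference of -1.38 (limma adjusted p = 0.0128), and DIR1 had -0.04 in scr and a difference of -1.33 (limma adjusted p = 0.0016). BGLU28 had 2.51 in scr, in the same direction as in shr, and was higher in shr than in scr by 1.12 (limma adjusted p = 0.0244). LSU1 had 2.89 in scr and a difference of 0.79 between the mutants, which passed without shr replicate 3 and not with it (limma adjusted p = 0.0215 and 0.424). Each of the 6 genes that passed here also passed without shr replicate 3.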

How the data were processed

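The authors hybridised RNA of the 9 samples to ATH1 arrays and deposited log2 values made with RMA, per the submitters' processing notes, as 1 value for each of 20777 loci. RMA corrects background, normalises quantiles between arrays and summarises probes. Its version, the assignment of probes to loci and any filter are not stated. Groups and replicate numbers came from the sample titles. No array was identical to another and no locus was filtered out.

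One linear model with a mean per genotype was fitted to the 9 arrays with limma 3.58.1 in R 4.3.3, with eBayes, and again without shr replicate 3. P-values are two-sided, and the threshold was an adjusted p of 0.05. They set each difference against the spread between these arrays within groups, scr included, which eBayes moderates over all loci. Standard errors are limma's. On simulated data (20 draws, 200 of 20777 loci changed) the fit recovered 55.6% of 1.5-fold and 84.4% of 2-fold changes in shr against WT with 4.80% false calls, and without replicate 3 40.7% and 78.7% with 5.51%. The simulated noise was normal with 1 spread per locus for all arrays, so no simulated array stood apart as shr replicate 3 does. Fewer loci were changed there than were called in the data. The rates were therefore not shown to hold for the deposited arrays.

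Symbols came from the RefSeq gene table of TAIR10.1, in which 20508 loci matched and 8675 had a symbol of their own. No sequences or coordinates were used here. The 27 gene lists (505 loci, 457 measured) came from general knowledge of each pathway. The comparison, the lists and the naming rule were chosen with earlier results of these data known. The rule names CYCD6;1, SCR and SHR, the 18 symbols that rose furthest and the 18 that fell furthest among loci that held without overlap between groups, up to 4 members of each list whose change held, the 6 loci called without replicate 3 on which that array lay farthest back, and the 6 largest changes called only with all arrays. JKD, SCL23, APR1, MYB29, CYP83A1, BCAT4, SPX1, PAP17, PRODH1, DRM2, SEN1, IAA29, HAT2, GH3.3, HBI1, XTH24, PCNA2, MCM7, LTP3, PAP1, DFR, TT8, TT4, CCA1, LHY, GRP7, PR2, AOS, CLV1, PP2-A1, XCP1, AT5G65360 and SWEET12 were named after their values were seen.

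Deviations from the group means correlated at 0.204, -0.106 and 0.099 between WT and shr arrays of equal number, so the numbers were not taken as pairs. Alternatives left out each array, used the WT and shr arrays alone, the replicate number as a block, array weights, a trend in the spread, a common median and a filter on the dimmest 40% of loci.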

Additional observations from a re-analysis of the deposited data

How the results depend on the processing

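The 3 arrays per group limit what can be called, and each single array weighed on the counts. Leaving out 1 array gave 654 to 2643 calls in shr against WT in place of 1691, and 644 to 1384 in place of the 1514 that held. With the WT and shr arrays alone there were 807, all of which held, and with array weights, which gave shr replicate 3 a weight of 0.244 and the other arrays 0.832 to 1.62, there were 2657. The replicate block gave 1720 calls (1432 that held), and 12 of 137 named genes then missed the threshold while 4 newly passed it. SHR kept its direction and call in all 16 alternatives, as did 44 of the 110 other named genes that could be run in all of them. The filter on dim loci removed the other 27, of which 13 kept both in the remaining 15. On the genes that changed direction, shr replicate 3 lay on the other side of the WT mean from the mean of the other shr arrays. Some genes that kept their direction, such as PAP1, had this order too. DIN10, among those that changed, had a difference near 0 with all arrays. Without that array, with the scr arrays or without them, BXL2 had -0.68, XTH31 0.70, EXLA1 -0.66, DRM2 -0.54, SEN1 -1.12 and XTH24 -0.025. Array weights gave -0.36 for BXL2, 0.26 for XTH31, -0.11 for EXLA1 and -0.66 for SEN1. Over the fits without 1 array the highest or lowest values at the other end were 1.16 for BXL2, -1.38 for XTH31, 2.0 for EXLA1, 2.34 for DRM2, 1.07 for SEN1 and 1.76 for XTH24, and DIN10 ran from -1.95 to 0.93, with 0.06 without WT replicate 2 and 0.78 without shr replicate 2. Counts of list members stayed within 1.5 times in 306 of 432 values. With the filter on dim loci calls fell from 7 to 2 in the heat shock list, 4 to 2 in the SHR-SCR list, 3 to 1 in the leaf growth list and 1 to 0 in the salicylic acid and clock lists.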
